A study of Mus musculus with 7 samples.

Results

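Interferon-stimulated genes are the genes that a cell switches on when an interferon binds its receptor. The set described here holds 41 listed mouse genes, chosen by symbol from the common type I and type II interferon responses, with no threshold on their values. Of these, 40 were found among the 19736 gene rows of the files. Mx2 is not analysed here, and Gbp6 was listed at 0 in all 7 libraries, so 39 members were kept for testing. A gene was tested when 3 or more libraries reached 10 normalised counts, the deposited read count after division by a factor for library size. Of the 39, 38 were at 10 or above in every library, and Oasl2, at 8.80 in CCR6- replicate 4, was the exception.

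The genes were measured by RNA-seq in regulatory T (Treg) cells, CD4 T cells that restrain immune responses and are defined by the transcription factor FOXP3. The cells were sorted from total lung digests of female mice, 5 to 7 weeks old, of the label genotype Foxp3EGFP Il4raR576. Both groups therefore share the Il4raR576 allele, which alters the alpha chain of the IL-4 receptor, the EGFP reporter of Foxp3 and the ovalbumin (OVA) protocol. In this protocol 100 µg of OVA was injected and boosted 2 weeks later, followed from day 29 by an aerosol of 1% OVA for 30 min a day on 3 days and death on day 32. The groups differ in the sorted chemokine receptor, with 3 CCR6+Foxp3EGFP+ Il4raR576 libraries and 4 CCR6-Foxp3EGFP+ Il4raR576 libraries, and the latter serve as the reference. No wild-type Il4ra, unchallenged or interferon-treated samples are part of the comparison. No label says that the libraries came from separate mice, so each p-value rests on how these libraries scatter, and that scatter could be technical.

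As background, the response to type I and type III interferons acts through the interferon-stimulated response element (ISRE) in promoters, and the response to interferon gamma through the gamma-activated site (GAS). The type I program is rich in sensors and blockers of viral RNA, while the guanylate-binding proteins and the immunity-related GTPases, which attack the vacuoles of intracellular microbes, are strong targets of interferon gamma. T cells keep a low, steady level of many of these genes without infection.

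Many members share letters in their promoters. A window from 250 bases before to 50 bases after the annotated start was present in the RefSeq promoter table (build GRCm38.p6, the primary sequence of mm10) for 28 of the 39 tested members. An ISRE core, searched as GAAA, any 2 bases and GAAA on both strands with overlaps allowed, lay in the windows of 18 of these 28 members (64.3%), beside 3.85% of the 11103 tested genes with a window. A GAS core, searched as TTC, any 3 bases and GAA in the same way, lay in 9 of the 28 (32.1%), beside 8.64% of the tested genes. A match is a stretch of letters and not a measured binding site. Stretches of 8 of the 18 members with an ISRE match are printed, taken from the antiviral genes and the GTPases. Oasl2 and Oas2, the members of largest log2 difference, are not among them. Capitals mark the ISRE and GAS matches, and each stretch reads 5′ to 3′ on the strand of its gene.
Isg15: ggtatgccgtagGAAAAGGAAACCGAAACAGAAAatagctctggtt
Ifit1: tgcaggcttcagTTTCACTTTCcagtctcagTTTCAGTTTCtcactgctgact
Ifit3: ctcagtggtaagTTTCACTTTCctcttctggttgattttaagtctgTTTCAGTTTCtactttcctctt
Rsad2: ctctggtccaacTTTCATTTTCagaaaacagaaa
Gbp3: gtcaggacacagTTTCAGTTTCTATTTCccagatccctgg
Irgm1: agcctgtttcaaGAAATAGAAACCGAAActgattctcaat
Igtp: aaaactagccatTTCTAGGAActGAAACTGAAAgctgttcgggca
Irgm2: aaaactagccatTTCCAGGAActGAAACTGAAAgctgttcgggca

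The stretches lie at chr4:156200863-156200908 on the minus strand (Isg15), chr19:34640773-34640825 and chr19:34583361-34583428 on the plus strand (Ifit1 and Ifit3) and chr12:26456551-26456584 on the minus strand (Rsad2). Those of the GTPases lie at chr3:142559987-142560026 on the plus strand (Gbp3), chr11:48871423-48871462 on the minus strand (Irgm1), and chr11:58199499-58199543 and chr11:58214890-58214934 on the plus strand (Igtp and Irgm2). Isg15 carried 3 overlapping ISRE matches. In Ifit1 and Ifit3 the matches were separate, while those of Gbp3 and Irgm1 overlapped. The match nearest to the start began 66 bases before it in Isg15, 85 in Ifit1, 122 in Ifit3, 120 in Rsad2, 39 in Gbp3, 24 in Irgm1, 34 in Igtp and 64 in Irgm2. Igtp and Irgm2 each showed a GAS match followed by an ISRE match, and their stretches of 45 bases differed at 1 position. Counted by gene, all 4 guanylate-binding proteins and all 3 immunity-related GTPases in the table had an ISRE match, against 2 of 4 OAS genes. Gbp3 also has a window at a later start, which held none. Oasl2, the member with the largest difference below, had no match to either core in its window. The 18 members with an ISRE match had a median log2 difference between the groups of 0.17, and the 10 with a window and no match 0.12. These medians were 0.32 and -0.024 without CCR6+ replicate 2, a library that stood apart. The 11 members with no window had medians of 0.17 with all libraries and 0.24 without that library. Oasl1, Oasl2 and Ifi44, all highest in CCR6+ replicate 2, are in the set without a match. Most of the GTPases in the set with a match were lowest in it. Whether a match bears on the difference was not tested.

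The libraries held 11607780 to 47261246 recovered reads. CCR6+ replicate 2 was the shallowest and stood apart, with Lyz2, a macrophage gene, at 63003 in it and at 539 to 12844 in the other libraries. Of the markers of other cell types, all 10 of endothelium and stroma, all 8 of dendritic cells and 9 of 10 of macrophages and monocytes were highest in it. Their summed normalised counts were 59390.4, 19083 and 91971 there, against 5541 to 9762, 3316 to 5144 and 18781 to 69761 in the other 6 libraries. Epithelial and granulocyte markers were high there too, summing to 76405 and 5634 against 1755 to 11581 and 55.5 to 849.7. B cell markers summed to 5509 in CCR6+ replicate 2, inside the range of the other libraries, 497 to 5840. Only CCR6+ replicate 1, at 5840, was higher, and the B cell mean log2 level was highest in CCR6+ replicate 2, at 9.08. Natural killer and CD8 cell markers summed to 2693 there, inside the range of the other libraries, 1942 to 4097. By group the sums of the first 3 lists ran from 6199 to 59390.4, 4467 to 19083 and 39537 to 91971 in CCR6+ libraries and from 5541 to 8440, 3316 to 4096 and 18781 to 37097 in CCR6- libraries. In the macrophage and monocyte list the gene of highest mean was Ccr2, a chemokine receptor gene, followed by Lyz2. Which cells the reads of Ccr2 came from was not tested. Clec9a, Siglech, Pdgfra and Pdgfrb were at 0 in CCR6+ replicate 1 and Vwf in CCR6- replicate 4. The sum of the 8 Treg and T cell markers was lowest in CCR6+ replicate 2, at 98795, against 160604 to 273236. Foxp3 itself stood at 12206 in this library and at 19376 to 50875 in the other libraries, so the defining marker of the labelled cell type was present throughout. The counts of members, and most of the differences that this library moves, are therefore given with and without it.

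No member differed between CCR6+ and CCR6- Treg cells past the test. Limma on log2(normalised count + 1), with Benjamini-Hochberg adjustment over the 14582 genes tested, called 0 of the 39 members higher and 0 lower at 0.05, and 0.0% of all genes in each direction. At an unadjusted p under 0.05, 4 members were higher and 0 lower, against 8.22% and 2.35% of all genes. Without CCR6+ replicate 2, limma again called 0 members, and 1 was higher and 0 lower at an unadjusted p under 0.05, against 4.57% and 2.32% of all genes. EdgeR on the recovered reads called no member and 0.0137% of all genes higher. DESeq2 called no member either, against 3.72% of all genes higher and 0.933% lower, and gave Oasl2 no adjusted p. Without CCR6+ replicate 2 both tools again called 0 members, while edgeR called 0.0137% of all genes higher and DESeq2 0.713% higher and 0.549% lower. The smallest adjusted p of a member under limma was 0.449. In bulk samples like these, fewer cells that express a gene and less of its RNA per cell cannot be told apart.

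With all libraries, but not without CCR6+ replicate 2, the data also bounded the size of a difference for most members. The 95% interval of the log2 difference (CCR6+ minus CCR6-) lay within 1 log2 unit of 0 for 26 of 39 members (66.7%), beside 44.6% of all genes tested. This held for only 18 of 39 members (46.2%) without CCR6+ replicate 2, beside 43.0% of all genes. Positive differences were more frequent than negative ones, 30 against 9, and the median difference of the members was 0.16, where 56.9% of all tested genes were positive and their median was 0.10. Without CCR6+ replicate 2 the counts were again 30 and 9 and the median 0.24, beside 53.6% and 0.04 for all genes. All 39 members have a mean of at least 100, whereas these shares and medians of all genes include genes of lower level. With all libraries the median was -0.04 for the genes with a mean of at least 100. The count of positive members lay at 27 with TMM scaling or quantile normalization, 26 with edgeR and 33 with equal library totals. The median of all genes moved with these settings as well, to 0.012, -0.08, 0.03 and 0.18 in that order. Their share of positive genes was not counted there. Averaged over the 39 members, the log2 level was 10.95, 10.89 and 10.70 in CCR6+ replicates 1 to 3 and 10.63, 10.62, 10.54 and 10.43 in CCR6- replicates 1 to 4. The means of the groups did not overlap, but the medians over the members did, at 10.74 to 10.81 and 10.42 to 10.91.

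**Figure D1:**
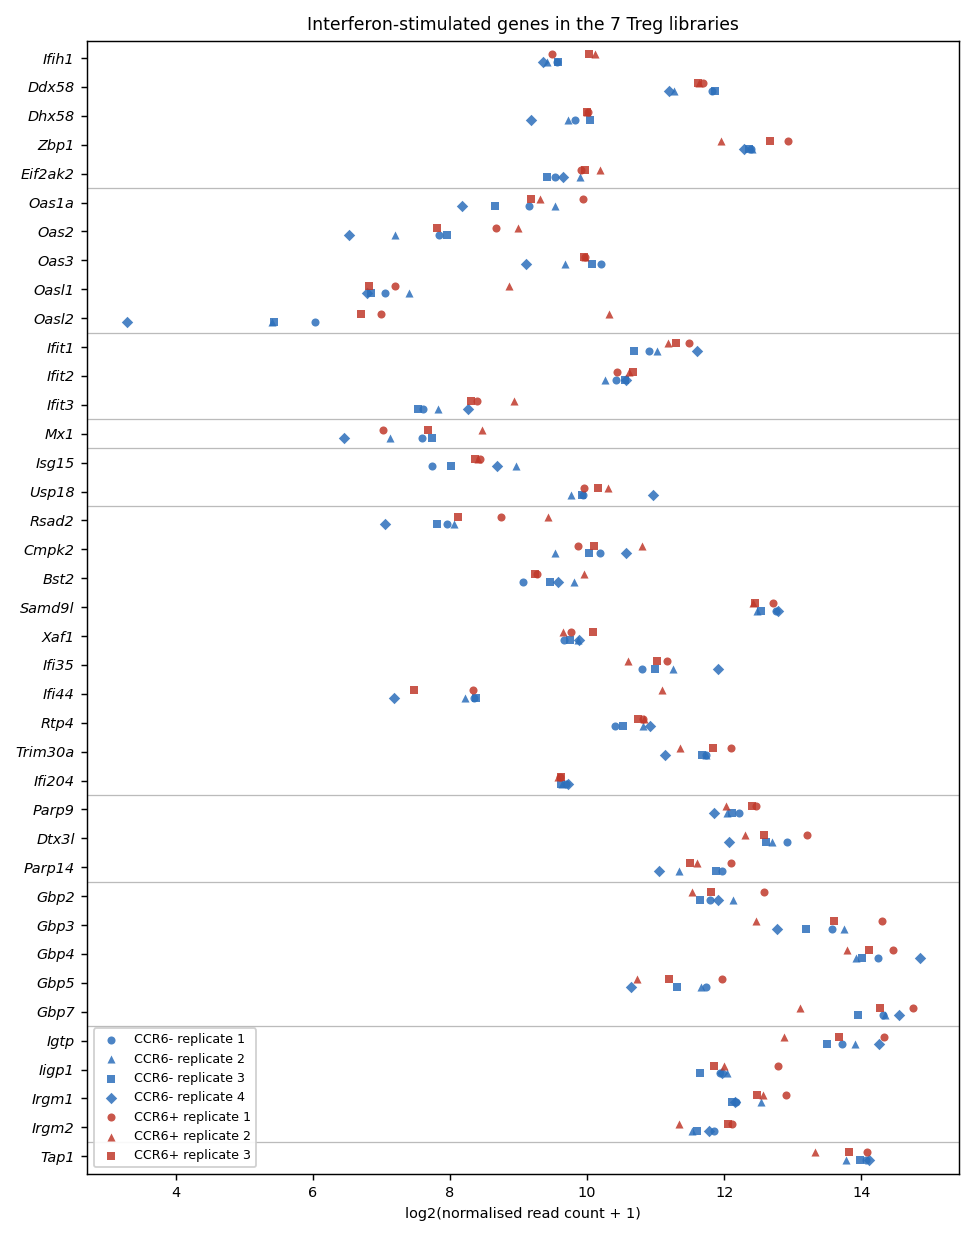
Each point is 1 library, on a horizontal scale of log2(normalised read count + 1), for the 39 tested genes (rows, with lines between role groups). CCR6+ libraries are red and CCR6- libraries blue, and for most genes the colours intermix, while Oasl2, Ifi44 and Oasl1 show 1 red triangle, CCR6+ replicate 2, far to the right of the rest.

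The groups did not overlap for 4 members with CCR6+ higher (10.3%, beside 7.96% of all genes) and for 1 with CCR6+ lower (beside 5.53%). The 4 were Oasl2, Ifit3, Rsad2 and Eif2ak2, and the 1 was Ifi204. Without CCR6+ replicate 2 the count was 8 higher (20.5%, beside 10.5% of all genes) and 1 lower (beside 8.62%). The 8 were those 4 with Zbp1, Trim30a, Parp9 and Irgm2. With TMM scaling of all libraries only Oasl2 remained of the 4, and Ifi204 no longer stood apart. With quantile normalization Oasl2, Ifit3 and Rsad2 overlapped between the groups, and Eif2ak2, Parp9 and Irgm1 were the 3 separated with CCR6+ higher.

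Oasl2 encodes an OAS-like protein with ubiquitin-like domains. It lies on mm10 chromosome 5 from 114896936 to 114912234. It stood at 127, 1283 and 104 normalised counts in CCR6+ replicates 1 to 3 and at 64.3, 41.4, 42.3 and 8.80 in CCR6- replicates 1 to 4. CCR6+ replicate 2 exceeded the next library 10.1 times, and yet the remaining CCR6+ libraries also lay above every CCR6- library. The log2 difference was 2.97 (SE 1.08, limma adjusted p = 0.455), or 1.81 (SE 0.80, adjusted p = 0.776) without CCR6+ replicate 2. The markers of macrophages, dendritic cells, endothelium and stroma were also highest in CCR6+ replicate 2, and their part in the values of Oasl2, Oasl1 and Ifi44 in that library was not tested.

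The remaining OAS genes make or resemble the enzymes whose oligoadenylates activate the RNA-cutting enzyme RNase L. Oas2 stood at 409, 507 and 224 in CCR6+ cells and at 228, 146, 247 and 91.4 in CCR6- cells, with a log2 difference of 1.11 (SE 0.45, limma adjusted p = 0.471). CCR6+ replicate 3 lay among the CCR6- libraries, so the groups overlapped. Oas1a stood at 980.3, 635 and 582 against 569, 739.96, 401 and 287, where CCR6- replicate 2 was above the lower CCR6+ libraries. Oas3, the largest of the family, was almost the same in the 3 CCR6+ libraries, at 997, 1005 and 994, while the CCR6- libraries stood at 1176, 817, 1074 and 552, a log2 difference of 0.20 (SE 0.29, limma adjusted p = 0.74). Oasl1 had its high value in CCR6+ replicate 2 alone, at 466 against 110 to 168 in the other 6 libraries. Its log2 difference of 0.60 became -0.02 without that library. All 5 OAS differences were positive with the authors' scaling, TMM scaling and equal library totals. With quantile normalization, without CCR6+ replicate 2 or without CCR6- replicate 4, 4 of 5 were.

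The IFIT proteins bind foreign RNA and block its translation, and their genes sit next to each other on chromosome 19. Ifit3 stood at 335, 489 and 315 in the CCR6+ libraries and at 195, 225, 185 and 305 in the CCR6- libraries. The gap between the groups was narrow, from 305 in CCR6- replicate 4 to 315 in CCR6+ replicate 3. Its log2 difference was 0.74 (SE 0.26, limma adjusted p = 0.449), or 0.54 without CCR6+ replicate 2. Ifit3b, a near copy of Ifit3, had a log2 difference of 0.70 (SE 0.21, limma adjusted p = 0.44), and reads of the copies may not have been separable. Ifit1 stood at 2865, 2311 and 2509 against 1919, 2084, 1641 and 3121, so that a CCR6- library, replicate 4, was the highest of all and the log2 difference 0.26 (SE 0.26, limma adjusted p = 0.637). Ifit2 was the steadiest of the family, between 1230 and 1625 in all 7 libraries, with a log2 difference of 0.12 (95% interval -0.26 to 0.51).

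Among the sensors of foreign nucleic acid, Ddx58 (RIG-I), Ifih1 (MDA5) and Dhx58 (LGP2) detect viral RNA in the cytoplasm, Zbp1 binds nucleic acid in its Z form and Eif2ak2 (PKR) halts translation on double-stranded RNA. All 5 had positive log2 differences, from 0.11 to 0.40 with all libraries and from 0.12 to 0.43 without CCR6+ replicate 2, and none passed. The signs were the same with TMM scaling, equal library totals and quantile normalization, while edgeR, and limma without CCR6+ replicate 1 or without CCR6- replicate 4, gave 4 of 5 positive. Without CCR6- replicate 4 the median of the 5 was 0.14, against 0.31 with all libraries. Eif2ak2 stood at 962, 1169 and 1002 against 738, 957, 682 and 804. Its groups were separated only by the step from 957 to 962. Ifih1 stood at 714, 1112 and 1047 against 758, 684, 759.6 and 657, with CCR6+ replicate 1 inside the CCR6- range. Zbp1 stood at 7792, 3981 and 6496 against 5348, 5427, 5282 and 5008, so its lowest value was that of CCR6+ replicate 2. Without this library the log2 difference of Zbp1 went from 0.16 to 0.43 (SE 0.17, limma adjusted p = 0.716), the smallest p among the members in that fit. Ddx58 was close in the CCR6+ libraries, at 3151 to 3302, and spread from 2346 to 3729 in CCR6- cells. Dhx58 was likewise tight in CCR6+ cells, at 1021 to 1033, against 581 to 1055.

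**Figure D2:**
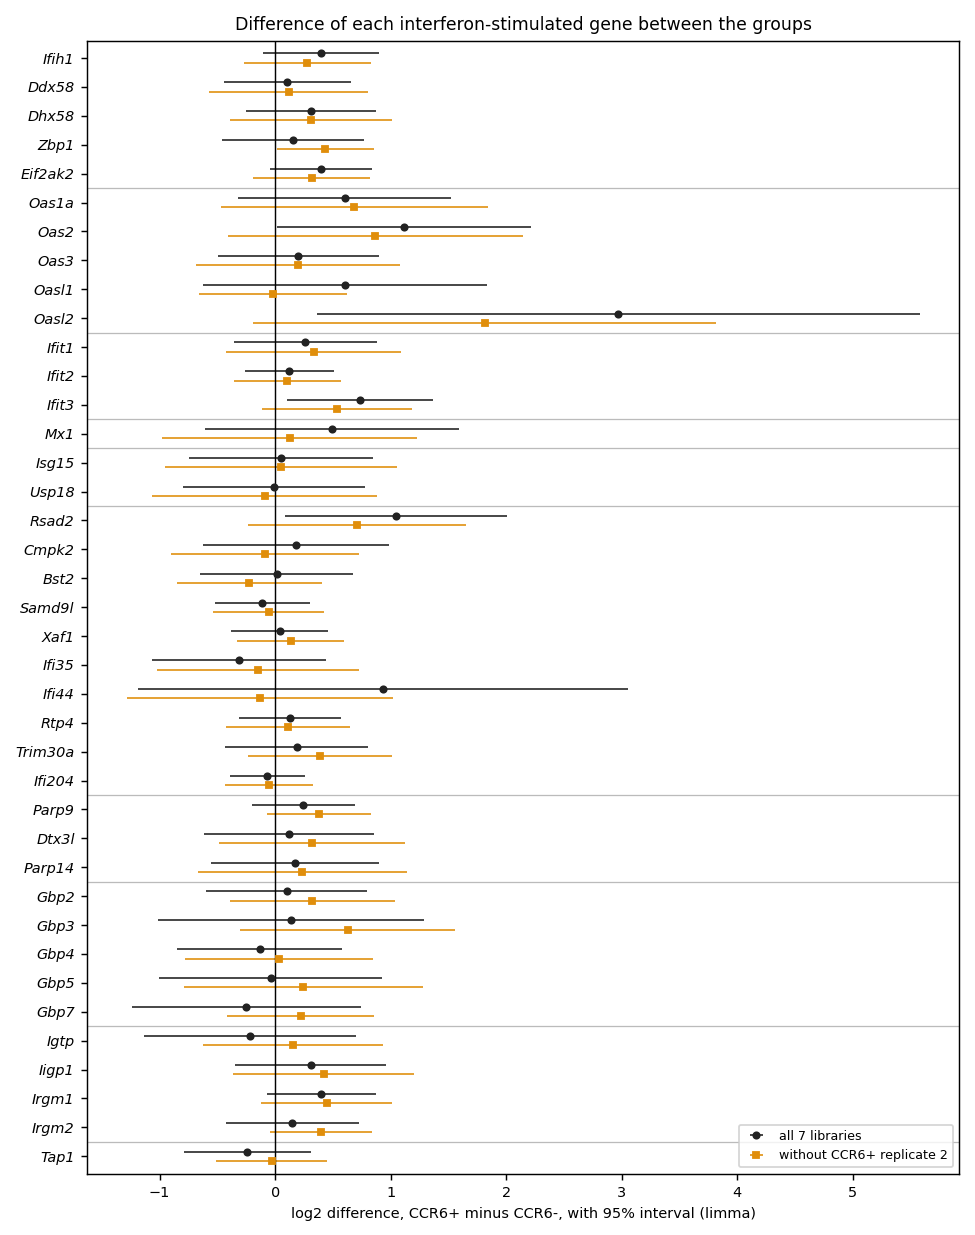
Points give the log2 difference of each member (CCR6+ minus CCR6-), and bars its 95% interval from limma, for all 7 libraries (black circles) and without CCR6+ replicate 2 (orange squares). With all libraries only the intervals of Oasl2, Oas2, Ifit3 and Rsad2 leave out 0, before any adjustment, and most intervals lie within 1 log2 unit of 0.

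Isg15, a ubiquitin-like protein that is joined to other proteins during an interferon response, was even between the groups. It stood at 347, 339 and 328 in CCR6+ cells and at 212, 499.7, 258 and 411 in CCR6- cells. The CCR6+ libraries lay in the middle of the CCR6- range, and the log2 difference was 0.05 (95% interval -0.74 to 0.85). Usp18 removes ISG15 from proteins and dampens the type I receptor. It stood at 991, 1262 and 1144 against 979.8, 872, 973 and 1991, and its log2 difference was -0.01 (95% interval -0.80 to 0.78). Mx1 encodes a dynamin-like GTPase that blocks influenza virus, and many laboratory mouse strains lack its working form. It stood at 129.7, 353 and 204 against 193, 139, 212 and 86.6, with a log2 difference of 0.49 (SE 0.45, limma adjusted p = 0.625), or 0.12 without CCR6+ replicate 2.

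The antiviral effectors of other families went separate ways across the libraries. Rsad2 (viperin, which makes a chain-terminating nucleotide) stood at 429.6, 692 and 276 against 248, 267, 224 and 131. Its groups met closely at 276 and 267, and the log2 difference was 1.04 (SE 0.40, limma adjusted p = 0.465), or 0.71 without CCR6+ replicate 2. Rsad2 lies on mm10 chromosome 12 from 26442746 to 26456452, beside Cmpk2, a mitochondrial nucleotide kinase gene. Cmpk2 did not share its pattern, at 937, 1774 and 1101 against 1166, 737, 1038 and 1523, a log2 difference of 0.18 that became -0.09 when CCR6+ replicate 2 was left out. Ifi44 stood at 321, 2186 and 177 against 325, 297, 331 and 145. Only CCR6+ replicate 2 was high, 6.60 times the next library, and the log2 difference went from 0.93 with it to -0.13 without it.

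Bst2 (tetherin, which holds budding viruses at the cell surface) stood at 619, 996 and 603 against 537, 901, 701 and 760.1. Its log2 difference was 0.01 (SE 0.27, limma adjusted p = 0.983) with all libraries and -0.22 when CCR6+ replicate 2 was left out. Ifi35 was highest in CCR6- replicate 4, at 3831, and lay between 1554 and 2451 in the other libraries, with a log2 difference of -0.31 (SE 0.31, limma adjusted p = 0.645), or -0.15 without CCR6+ replicate 2. Ifi204, a HIN-domain protein that binds DNA, was the steadiest member, at 779, 759.8 and 785 against 823, 792, 789 and 846. Its groups did not overlap and yet the log2 difference was -0.07 (95% interval -0.39 to 0.26). With equal library totals this sign turned. Samd9l, a growth-restraining antiviral factor, stood at 6725, 5478 and 5588 against 6936, 5721, 5927 and 7025, a log2 difference of -0.11 (SE 0.17, limma adjusted p = 0.757) between groups that overlapped. Xaf1 and Rtp4 were similarly level, with log2 differences of 0.04 and 0.13, which became 0.13 and 0.11 when CCR6+ replicate 2 was left out. Trim30a stood at 4364, 2627 and 3640.1 against 3393, 3418, 3283 and 2261, which separates the groups only without CCR6+ replicate 2.

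PARP9 and DTX3L form a complex that joins ADP-ribosylation to ubiquitination in the interferon response, and PARP14 is a related ADP-ribosyltransferase. Parp9 and Dtx3l lie head to head on chromosome 16 and overlap in a small share of their exonic bases (9.40% of Parp9) on opposite strands, so some reads may be shared. Parp9 stood at 5638, 4183 and 5414 against 4745, 4194, 4444 and 3700.1. Dtx3l stood at 9458, 5050 and 6102 against 7693, 6612, 6276 and 4312, and its groups overlapped. Their log2 differences were 0.24 (SE 0.18, limma adjusted p = 0.578) and 0.12 (SE 0.30, adjusted p = 0.854). When CCR6+ replicate 2 was left out they were 0.38 and 0.32. Parp14 had a log2 difference of 0.17, and of 0.24 when that library was left out.

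Igtp and several guanylate-binding proteins were among the members of highest level. Per kilobase of exon, the mean over the 7 libraries was 7149 normalised counts for Igtp, 3513 for Gbp3, 3483 for Gbp7 and 2581 for Gbp4. On the same scale Tap1 stood at 2791 and Zbp1 at 1592, while Iigp1 stood at 742, Isg15 at 452, Gbp5 at 406 and Oasl2, the lowest tested member, at 37.4. Gbp7 stood at 27506, 8778 and 19753 in CCR6+ cells and at 20305, 20860.5, 15814 and 23843 in CCR6- cells. Gbp3 stood at 20110.5, 5669 and 12359 against 12170.5, 13688, 9335 and 6958. The log2 difference of Gbp7 was -0.25 (SE 0.41, limma adjusted p = 0.775). For both genes CCR6+ replicate 1 was the highest library and CCR6+ replicate 2 the lowest.

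Most of the class shared these ends. Of the 9 tested members of the 2 GTPase families, 8 were highest in CCR6+ replicate 1 and 6 were lowest in CCR6+ replicate 2. The Treg and T cell markers were ordered alike at the ends, with a mean log2 level of 14.85 in CCR6+ replicate 1, 13.41 in CCR6+ replicate 2 and 14.28 to 14.70 in the other libraries. Their part in the GTPase values was not tested. The means of the interferon receptors and of the negative regulators of interferon signalling had the same ends, at 12.64 and 12.18 and at 12.95 and 12.11. That of the receptor kinases, STATs and interferon regulatory factors shared only the low end. The share of all genes with these ends was not counted. The 3 tested Gbp genes with negative log2 differences with all libraries, Gbp4, Gbp5 and Gbp7 at -0.13, -0.04 and -0.25, were positive without CCR6+ replicate 2, at 0.03, 0.25 and 0.22. Gbp2 and Gbp3 were positive in both fits, at 0.10 and 0.14 with all libraries and at 0.32 and 0.63 without CCR6+ replicate 2. Without CCR6+ replicate 1 instead, 0 of the 5 were positive and their median was -0.31. With equal library totals or quantile normalization 3 of the 5 were positive.

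Of the immunity-related GTPases, Igtp stood at 20539 in CCR6+ replicate 1, 7529 in CCR6+ replicate 2 and 13086 in CCR6+ replicate 3, against 13502, 15291, 11582 and 19660.1. Its log2 difference was -0.22 (SE 0.38, limma adjusted p = 0.785), or 0.15 without CCR6+ replicate 2. Irgm1, which guides the class away from the cell's own membranes, stood at 7680, 6039 and 5708 against 4628, 5944, 4441 and 4573. Only CCR6- replicate 2 reached into the CCR6+ range, and the log2 difference was 0.40 (SE 0.19, limma adjusted p = 0.49). Irgm2 stood at 4433, 2600 and 4256 against 3684, 2963, 3111 and 3497, with a log2 difference of 0.15 (SE 0.24, limma adjusted p = 0.769), or 0.40 without CCR6+ replicate 2, where the groups no longer overlapped. Igtp and Irgm2 overlap in a small part of their exons on chromosome 11. Iigp1 had a log2 difference of 0.31 (SE 0.27). Tap1, a subunit of the transporter that feeds peptides to MHC class I, stood at 17418, 10198 and 14395 against 17093, 14034, 16117 and 17712, with a log2 difference of -0.24 (SE 0.23, limma adjusted p = 0.63), or -0.03 without CCR6+ replicate 2.

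**Figure D3:**
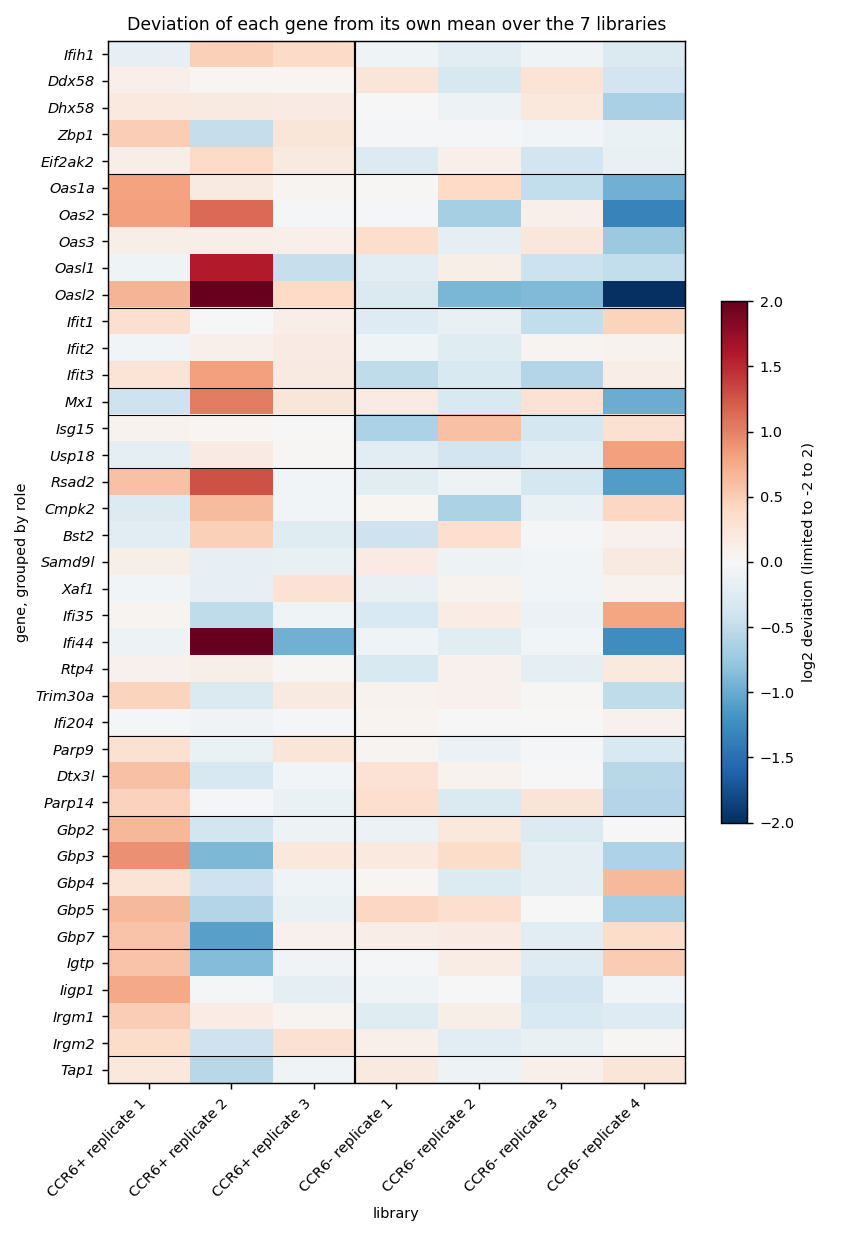
Colours give the deviation of each member (row) from its own mean over the 7 libraries (columns, the line parts CCR6+ from CCR6-), in log2 units limited to -2 to 2. CCR6+ replicate 2 is red for Oas2, Oasl1, Oasl2, Mx1, Rsad2 and Ifi44 and blue for most Gbp genes and Igtp, whereas CCR6- replicate 4 is blue for Oas1a, Oas2, Oas3 and Oasl2 and red for Usp18 and Ifi35.

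The members did not follow 1 common order of the libraries. CCR6+ replicate 2 was the highest library for 11 members and the lowest for 12. CCR6- replicate 4 was the highest for 8 and the lowest for 16, and CCR6+ replicate 1 the highest for 14 and the lowest for 0. The median within-group SD of the members was 0.38 log2 units, beside 0.42 for all tested genes and 0.33 for those with a mean of at least 100, as all 39 members have, and ran from 0.04 for Ifi204 to 1.57 for Oasl2. The mean log2 level of the OAS family was 8.56, 9.49 and 8.10 in CCR6+ replicates 1 to 3 and 8.06, 7.84, 7.79 and 6.78 in CCR6- replicates 1 to 4. That of the Gbp family was 13.61, 12.32 and 12.99 against 13.13, 13.16, 12.82 and 12.94. The 9 tested macrophage and monocyte markers had means of 9.40, 10.97 and 8.47 against 8.77, 8.40, 7.33 and 5.62, so their highest and lowest libraries were those of the OAS family mean. In that list Adgre1 was at 0 in CCR6- replicate 4 and Marco at 0 in CCR6+ replicate 1 and CCR6- replicate 2. Endothelium and stroma, epithelium, granulocyte and B cell marker means were likewise highest in CCR6+ replicate 2 and lowest in CCR6- replicate 4. They stood there at 12.09 and 4.48, 11.32 and 5.90, 9.10 and 2.34, and 9.08 and 4.70. The dendritic cell markers shared only the highest library, and the natural killer and CD8 cell markers neither. Gene by gene, Oas2, Oasl1 and Oasl2 were highest in CCR6+ replicate 2, but Oas1a in CCR6+ replicate 1 and Oas3 in CCR6- replicate 1. Each OAS gene was lowest in CCR6- replicate 4. How many of all genes have these ends was not counted, and the part of any of the marked cell types in the OAS values was not tested.

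**Figure D4:**
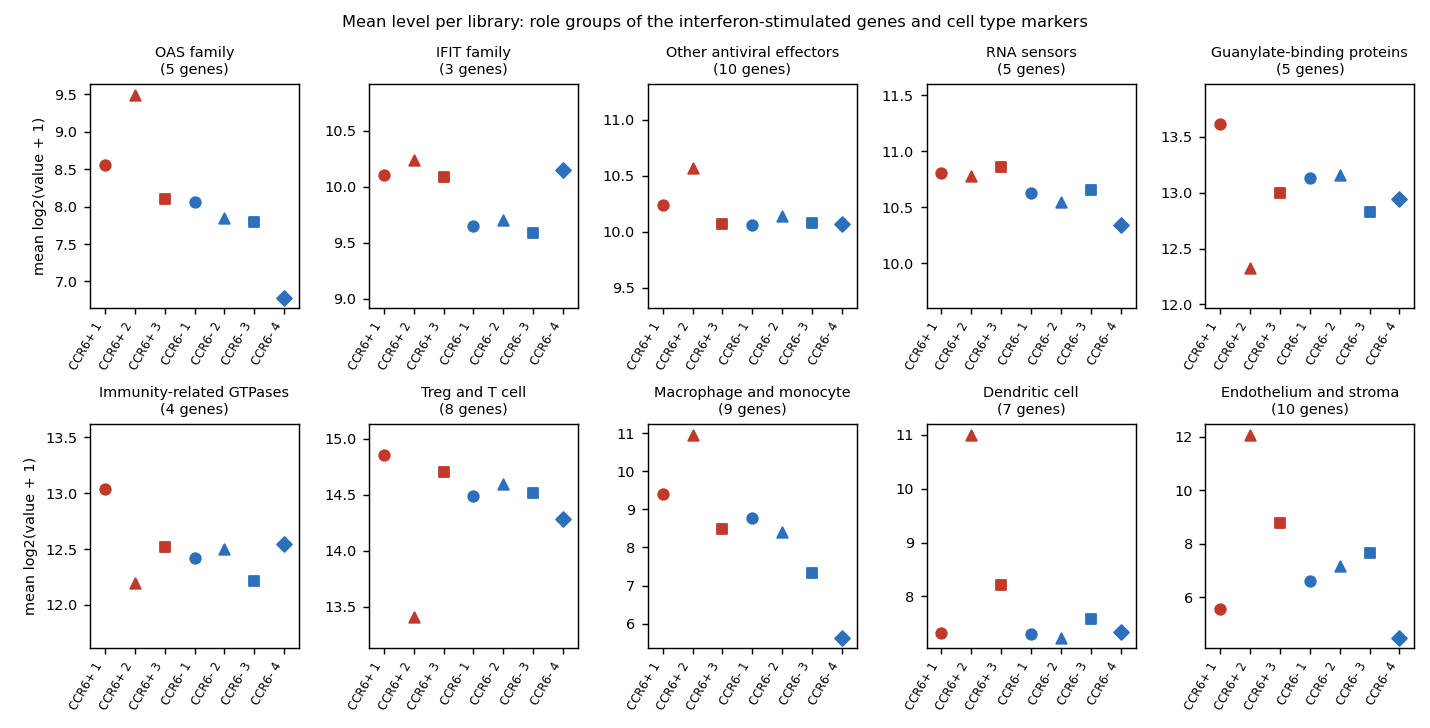
Each panel plots, for 1 list of genes, the mean of log2(normalised read count + 1) in each library, CCR6+ in red and CCR6- in blue, on a vertical scale of its own that does not start at 0. The OAS, macrophage, and endothelium and stroma panels have their highest point at CCR6+ replicate 2 and their lowest at CCR6- replicate 4. The guanylate-binding protein and Treg panels are lowest at CCR6+ replicate 2.

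Upstream of these genes, limma called 0 of the interferon genes, receptors, signal carriers and regulators tested, and none had an unadjusted p under 0.05 with all libraries. EdgeR and DESeq2 also called 0 of them. Without CCR6+ replicate 2 limma again called 0, and 1 gene, Ifng, had an unadjusted p under 0.05. Of the 8 interferon genes found in the files only Ifng and Ifnb1 reached the filter. Ifng, the gene of interferon gamma, was named after its values were seen. It stood at 37.8, 155 and 4.06 in CCR6+ cells and at 211, 169, 162 and 163 in CCR6- cells. All 4 CCR6- libraries were above all CCR6+ libraries, as for 5.53% of all genes. The log2 difference was -2.49 (SE 1.08, limma adjusted p = 0.478), while edgeR and DESeq2 gave -1.57 and -1.46. Without CCR6+ replicate 2 the limma difference was -3.65 (unadjusted p = 0.0051, adjusted p = 0.466). Ifnb1 was at 0 in CCR6+ replicate 1 and at 193 and 44.7 in the other CCR6+ libraries, against 0 to 16.6 in CCR6- cells.

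Of the 5 tested interferon receptor chains, 2 had positive and 3 negative differences with all libraries, and 3 positive and 2 negative ones without CCR6+ replicate 2. Ifnar2, a chain of the type I receptor, stood at 2633, 2725 and 2553 against 2409.9, 2401, 2416 and 1463. Its groups did not overlap, as for 7.96% of all genes with CCR6+ higher, and its log2 difference was 0.31 (SE 0.23, limma adjusted p = 0.575). The partner chain Ifnar1 had a log2 difference of -0.38 and Ifngr2, of the interferon gamma receptor, one of -0.37, or of -0.13 and -0.57 without CCR6+ replicate 2. Of the 9 kinases, STATs and interferon regulatory factors, 3 were positive and 6 negative with all libraries, and 7 positive and 2 negative without CCR6+ replicate 2. Irf3 had the smallest p, at a log2 difference of -0.62 (SE 0.27, limma adjusted p = 0.478), followed by Jak1 (-0.47) and Irf9 (-0.22). Without that library the values of Irf3, Jak1 and Irf9 were -0.46, -0.31 and 0.015. Among the 5 negative regulators, the phosphatase gene Ptpn6, Pias1 and Socs3 had log2 differences of -0.49, -0.23 and 0.39. Their values were -0.56, -0.100 and 0.68 when CCR6+ replicate 2 was left out.

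Of a further 60 interferon-induced genes, listed with earlier results of these data known, 54 were found in the files, and all 54 were kept. Limma called 0 of them, with 4 at an unadjusted p under 0.05, all higher (beside 8.22% of all genes), while edgeR called 0 and DESeq2 1 (beside 3.72% of all genes higher). This was Ifitm3, which blocks the entry of viruses and was named after its values were seen, at 207, 1993 and 349 against 159, 223, 167 and 132 (DESeq2 adjusted p = 0.0402, limma adjusted p = 0.484). CCR6+ replicate 2 alone stood far above the rest. Their log2 differences were positive for 21 and negative for 33, with a median of -0.10. Leaving out CCR6+ replicate 2 gave 28 and 26 and a median of 0.012. Besides Ifit3b, those of smallest p were Tmem140 and Ly6a. Tmem140 stood at 286, 200.2 and 147 against 90.8, 70.4, 123 and 123, a log2 difference of 1.03 (SE 0.32, limma adjusted p = 0.44) that was 1.04 without CCR6+ replicate 2. Ly6a, the gene of the surface protein Sca-1, stood at 4398, 6626 and 4181 against 1881, 3773, 2917 and 1710.3, a log2 difference of 1.02 (SE 0.35, limma adjusted p = 0.449). In both genes every CCR6+ library was above every CCR6- library. Of the 54 genes, 5 were separated in this way and 2 with CCR6+ lower, beside 7.96% and 5.53% of all genes.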

How the data were processed

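RNA-seq values of 7 Treg libraries were analysed. The authors deposited a signal per gene symbol that behaves as read counts scaled by 1 factor per library: 100% of the values were whole multiples of a step, within 0.001 reads, and division by the step gave whole reads. The submitters' processing notes name the build mm10 and the tools HTSeq 0.6.1p1, STAR 2.5.1b and DESeq2 1.6.3, without their roles. Which annotation was used, and whether strand counted, is not given in the sources used here. Genes at 10 or above in 3 or more libraries were tested in R 4.3.3 with limma 3.58.1, which was fitted to log2(value + 1), a scale that understates the change of low genes. Tests were two-sided, and p-values were adjusted over all genes (Benjamini-Hochberg, 0.05). EdgeR 4.0.16 and DESeq2 1.42.0 were run on the recovered reads. Alternatives were pseudocounts of 0.5 and 8, TMM scaling, equal library totals, quantile normalization, a minimum mean of 100, no filter, the replicate number as a block and each library left out. The methods were tested on simulated counts. Positions are from GENCODE release M21 (GRCm38), and promoter windows from RefSeq. No pair of libraries of a group agreed within sampling noise.

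The members, lists and tests were chosen with earlier results of these data known. Values in every library were to be given for the 4 members of smallest p per direction, with and without CCR6+ replicate 2, and for the member of highest mean in each role group. Values of further members were added after they were seen. From the lists of receptors, signal carriers, regulators and further induced genes the 3 of smallest p were named.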

Additional observations from a re-analysis of the deposited data

Results flagged for a closer look

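1 CCR6- library lay far from its 3 fellows in 3 of 49 checks, made on the tested members and on the means of their role groups. About 5% of such checks come out this way by chance. Usp18 reached 1991 normalised counts in CCR6- replicate 4, while CCR6- replicates 1 to 3 lay between 872 and 979.8. Trim30a was low in the same library, at 2261, where CCR6- replicates 1 to 3 lay between 3283 and 3418. Irgm1 was high in CCR6- replicate 2, at 5944, where the rest of the CCR6- group lay between 4441 and 4628. With 3 libraries, the CCR6+ group could not be checked in this way.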

How the results depend on the processing

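No member was called under any of the 19 alternatives, and the median log2 difference of the members stayed positive, from 0.070 with TMM scaling to 0.24 with equal library totals. Quantile normalization moved the median of all genes from 0.10 to -0.08. The count of 4 members with all CCR6+ libraries higher became 1 with TMM scaling and with edgeR's scaling, and 3 with quantile normalization. Without CCR6+ replicate 2 it was 7 with edgeR and 8 with DESeq2, and with each library left out under limma it ran from 4 to 8. Fewer libraries make a separation easier for any gene. Among all genes the share under limma was 7.96% with all libraries and 10.5% without CCR6+ replicate 2. This share was not counted for the other alternatives. The count of 1 lower became 0 with equal library totals, with TMM scaling, with edgeR on all libraries and with DESeq2 without CCR6+ replicate 2. It stayed 1 with edgeR without CCR6+ replicate 2, and was 1 to 2 with each library left out. Among all genes the share lower under limma was 5.53% with all libraries and 8.62% without CCR6+ replicate 2. Of the 19 members under the naming rule, 9 kept their sign in every alternative, among them Oasl2, Oas2, Ifit3, Rsad2, Tap1 and Ifi35. Signs turned with quantile normalization for Samd9l (0.029), Mx1 (-0.38) and Bst2 (-0.10), and with equal library totals for Ifi204 (0.018) and Usp18 (0.077). Bst2 was -0.072 with TMM scaling and -0.068 with edgeR. Without CCR6+ replicate 2, edgeR and DESeq2 gave 0.17 and 0.24 for Gbp7, -0.30 and -0.23 for Bst2, and 0.11 and 0.18 for Igtp. With each library left out, values ran from -0.60 to 0.22 for Gbp7, -0.050 to 0.43 for Zbp1, -0.22 to 0.14 for Bst2, -0.017 to 0.35 for Oas3, -0.14 to 0.26 for Usp18, -0.13 to 0.32 for Dtx3l and -0.57 to 0.15 for Igtp. The cause was not tested.

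With the replicate number as a block, no member was called and the median was 0.16. Oas3 became -0.017, Usp18 0.26 and Dtx3l -0.044. CCR6- replicate 4 has no partner in this fit. Whether the numbers pair the libraries could not be decided from correlations. Same-numbered libraries correlated at -0.13, -0.11 and 0.34, and not every library correlated best with its own number. Between CCR6+ and CCR6- libraries of different numbers the correlations ran from -0.76 to 0.69, a spread that covers these values. At 11607780 reads, CCR6+ replicate 2 gives the coarsest values, 2.27 units per read.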
